A study of Homo sapiens with 6 samples.

Results

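The heat shock proteins and their partners, the molecular chaperones of the cytosol, nucleus and mitochondria, were followed in LoVo cells exposed to DCC-2036. Genes were chosen by symbol. They comprised the DNAJ, HSPA, HSPB, HSPH, HSP90A and CCT genes together with HSPD1, HSPE1, TCP1 and HSF1, and HSPA5, DNAJB9 and DNAJC3 were left out because they belong to the endoplasmic reticulum (ER) stress response. The table of transcripts held 83 such symbols among 19223, and 158 of its 45006 transcripts. Where a symbol had several transcripts, the one with the highest 6-library mean stood for it. The members fell into 9 families, with 1 gene for HSF1, 2 for HSP90, 14 for HSP70 and HSP110, 2 for HSP60 and HSP10, 10 for CCT, 10 with a symbol starting HSPB, and 4, 12 and 28 for DNAJA, DNAJB and DNAJC. The rule reads symbols only, so it also took in HSPBP1, HSPBAP1 and HSPB11, which are not small heat shock proteins, the read-through transcript DNAJC25-GNG10, and several DNAJ proteins of the ER.

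LoVo is an established human cell line from a colon adenocarcinoma. DCC-2036, also called rebastinib, is a tyrosine kinase inhibitor. The Control cells received vehicle and the DCC-2036 cells 2.5 μM of the compound, in 6-well plates, for 48 h by the sample labels; the published account gives a shorter exposure for its RNA sequencing, so the time is not settled. Each group had 3 libraries, numbered 1 to 3, whose deposited values summed to 38997229, 39956227 and 40587145 for Control and 43279603, 45957597 and 48023306 for DCC-2036. The values are normalised expression values per transcript, not divided by length, and are called values here. Of 9 colonic epithelial markers, 7 were measured well enough to test, and KRT8 was the most abundant, at 55603, 60058 and 64134 in Control. The summed values of all 9 were 104483, 108192 and 114998 in Control and 148337, 163485 and 188447 with DCC-2036, and the part of this difference in the other results was not tested. KRT8 carries most of that difference, with 92924, 106391 and 125395 with DCC-2036. CDH1 stood at 1635, 1569 and 1609.7 in Control and 3305, 3458 and 3571 with DCC-2036, KRT18 at 18854, 18786 and 20167 and 22394, 24808 and 27843, and EPCAM at 4651, 4558 and 4524 and 5472, 5341 and 5961, each higher without overlap. KRT19 stood at 23357, 22892 and 24221 and 23855, 23176 and 25439 and CDX2 at 316, 283 and 291 and 365, 280.3 and 213, both with overlap, and KRT20 at 64.1, 43.6 and 51.5 and 17.7, 28.0 and 24.6, lower without overlap. CDX1 was listed at 0 in all 6 libraries and VIL1 did not exceed 4.12. The 3 leukocyte markers summed to 1.84, 5.38 and 2.73 in Control and 3.13, 2.23 and 5.72 with DCC-2036, with PTPRC at 0 in all 6 libraries and CD14 the most abundant. The 3 fibroblast markers, mainly COL1A1, summed to 397, 401 and 361 and 444, 439 and 539, and the 3 endothelial markers, mainly VWF, to 14.2, 4.98 and 14.9 and 40.2, 15.4 and 20.3.

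Chaperones bind proteins that are not yet folded or have lost their fold. HSP70 proteins hold short exposed stretches in cycles of ATP binding and hydrolysis, J-domain proteins of the DNAJ families deliver clients to them and start the hydrolysis, and exchange factors such as the BAG proteins reset the cycle. HSP90 takes over a narrower set of clients, many of them kinases and steroid receptors, with the help of cochaperones. CCT, also called TRiC, is a ring-shaped chaperonin of the cytosol that folds actin and tubulin, and HSPD1 with its lid HSPE1 forms the corresponding chamber in mitochondria. HSF1 is the transcription factor that switches on many of these genes after heat or other protein damage.

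Of the 83 genes, 71 had a value of 10 or more in 3 or more libraries and entered the test, among 12725 genes tested in all. With DCC-2036, 9 members were called higher (12.7% of those tested, against 19.2% of all tested genes) and 18 lower (25.4%, against 22.7%), where called means a Benjamini-Hochberg adjusted p under 0.01 in limma. One of the 9, HSPB6, passed the filter only through the DCC-2036 libraries, where it is high, so its call carries no weight, and it is in each count of calls given for the members or for the HSPB genes. The other 44 members were not called. Calls in either direction thus took 27 of 71 members, against 41.9% of all tested genes. The values of the groups did not overlap for 54 of the 71 (76.1%), against 71.1% of all tested genes. The median log2 fold change of the 71 was -0.19, beside -0.092 for all tested genes. The shares called lower and without overlap were near those of the whole table and say nothing particular about chaperones as a class, so the genes are described by family. The percentages of all tested genes are also the background of the counts by family and by partner list. The split was 8 higher and 23 lower with equal totals (beside 13.1% and 27.0% of all tested genes), 12 and 14 with median-of-ratios scaling (21.2% and 20.7%) and 10 and 16 with upper-quartile scaling (19.5% and 22.3%). DNAJB7 and DNAJC28 also met the filter through a single group, DCC-2036 and Control in that order. Both are among the 71 tested, the 54 without overlap and the members at an adjusted p under 0.05. DNAJC28 is also among those called lower with equal totals and without DCC-2036 library 3, and its calls carry no weight. With a mean-variance trend 10 further members were called, CCT3, CCT6A, CCT7, DNAJA4, DNAJB6, DNAJC8, DNAJC11, DNAJC24, HSPA12A and HSPA4L, at adjusted p of 0.00202 to 0.00853. Without the filter on low values DNAJC1, HSPB8, HSP90AA1, HSPA8, HSPD1, DNAJB2, DNAJB4, DNAJC9 and DNAJC13 lost their call, at adjusted p of 0.0108 to 0.0208. Scaling all libraries to equal totals moved the median of all tested genes from -0.092 to -0.29.

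The calls depended on single libraries, and the labels do not say whether the replicates are separate cultures, so the p-values measure only the spread between these samples, which may be technical. The tests rest on 3 libraries a group, and the DCC-2036 libraries varied more. The median SD of log2 values was 0.183 within members of the DCC-2036 group and 0.0778 within Control. DCC-2036 libraries 1 and 3 lay farthest from their group mean, with root mean square deviations over all tested genes of 0.328 and 0.355 log2 units, against 0.190 for library 2. Without DCC-2036 library 1, 10 members were called higher and 23 lower, and the same counts were found without library 3. Without library 2 they were 3 and 9. Leaving out Control library 1, 2 or 3 gave 4, 3 and 5 higher and 7, 7 and 7 lower. Calls over the whole table moved in the same settings, from 5329 genes with 6 libraries to 2539, 2444 and 2499 without a Control library and to 6161, 2579 and 5699 without DCC-2036 library 1, 2 or 3. All 27 called members kept their direction with each library left out, 24 of them their call without DCC-2036 library 1, all 27 without library 3, and 10 without any one of the 6 libraries. Of those 10, HSPB6 is set aside because of how it passed the filter, and the others were DNAJC25 and DNAJC27 on the higher side and HSPA2, HSPE1, HSPBAP1, DNAJB1, DNAJB5, DNAJC14 and DNAJC22 on the lower side. Near 0 the groups also differ in form: 7844, 7940 and 8078 transcripts were at 0 in the Control libraries and 5697 in each DCC-2036 library, and values above 0 but under 0.5 were listed for 0 transcripts in each Control library and for 2061, 2354 and 2277 with DCC-2036. The part of this in the values of genes listed near 0 was not tested. Different numbers of cells and different amounts of RNA per cell cannot be told apart in such bulk libraries.

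HSF1, the heat shock transcription factor, had values of 2568, 2609 and 2775 in Control against 2215, 1769 and 1252 with DCC-2036. All DCC-2036 libraries lay below all Control libraries, but they ranged widely, and the log2 fold change of -0.64 ± 0.21 (SE) was not called (adjusted p = 0.0353). Without DCC-2036 library 1 it was called, with an adjusted p of 0.00709. HSF2, a related factor that can pair with HSF1, rose from 617 ± 31.2 to 1412 ± 374 (mean ± SD, n = 3; log2 fold change 1.16, adjusted p = 0.00295). The single values were 638, 632 and 582 in Control against 1096, 1315 and 1826 with DCC-2036, without overlap. The adjusted p of HSF2 was 0.0124 to 0.0153 without any one Control library or DCC-2036 library 2. HSF2 was the sole gene called among 8 tested of 9 listed heat shock factors and their regulators, and HSF5 was listed at 0.

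Heat shock factors bind repeats of a 3-base unit in alternating direction. RefSeq promoter windows of 300 bases (250 before and 50 after the gene start, GRCh38.p14) were searched for the run GAANNTTCNNGAA or, on the other strand, TTCNNGAANNTTC. A window was held for 72 of the 83 members; none was used for CCT6A, DNAJB3, DNAJC1, DNAJC22, DNAJC24, DNAJC5B, HSF1, HSPA12B, HSPA14, HSPB11 and HSPB2. The run occurred in 7 of 95 windows of members, each of another gene, and in 172 of 35116 windows of all genes (0.490%). Of the 7 genes, HSP90AA1, HSPA8 and HSPD1 were called lower, HSP90AB1, DNAJA1 and DNAJB6 were not called, and HSPA6 was too low to test. By call, it was held by 3 of 17 members called lower with a window, 0 of 8 called higher, 3 of 38 not called and 1 of 9 not tested, and these shares were not compared. The 4 tested genes of the HSP90, HSP70 and HSP60 families that held the run are shown because their values went different ways. Capitals mark the run, 1 in HSP90AA1 and 2 in each other window, which overlap in HSPD1.
HSP90AA1, chr14:102086995-102087294, minus strand: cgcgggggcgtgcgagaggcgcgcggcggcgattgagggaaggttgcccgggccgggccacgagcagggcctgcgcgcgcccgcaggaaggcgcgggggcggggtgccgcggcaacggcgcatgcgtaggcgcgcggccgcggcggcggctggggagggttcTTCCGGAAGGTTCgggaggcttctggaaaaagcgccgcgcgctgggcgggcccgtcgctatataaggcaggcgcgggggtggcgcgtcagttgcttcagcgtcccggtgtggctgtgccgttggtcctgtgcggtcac
HSP90AB1, chr6:44247693-44247992, plus strand: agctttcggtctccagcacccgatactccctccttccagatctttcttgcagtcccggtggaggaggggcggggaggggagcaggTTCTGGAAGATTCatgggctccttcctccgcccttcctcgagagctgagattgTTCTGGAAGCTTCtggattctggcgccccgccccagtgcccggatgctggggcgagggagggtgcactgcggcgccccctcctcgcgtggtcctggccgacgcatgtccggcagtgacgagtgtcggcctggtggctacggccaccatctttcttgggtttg
HSPA8, chr11:123062087-123062386, minus strand: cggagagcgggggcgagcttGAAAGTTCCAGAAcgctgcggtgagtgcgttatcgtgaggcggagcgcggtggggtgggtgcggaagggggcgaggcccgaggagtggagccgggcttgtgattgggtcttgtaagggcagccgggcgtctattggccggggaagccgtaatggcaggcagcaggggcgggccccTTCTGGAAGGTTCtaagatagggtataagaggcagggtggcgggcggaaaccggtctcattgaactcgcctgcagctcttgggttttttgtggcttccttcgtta
HSPD1, chr2:197499791-197500090, minus strand: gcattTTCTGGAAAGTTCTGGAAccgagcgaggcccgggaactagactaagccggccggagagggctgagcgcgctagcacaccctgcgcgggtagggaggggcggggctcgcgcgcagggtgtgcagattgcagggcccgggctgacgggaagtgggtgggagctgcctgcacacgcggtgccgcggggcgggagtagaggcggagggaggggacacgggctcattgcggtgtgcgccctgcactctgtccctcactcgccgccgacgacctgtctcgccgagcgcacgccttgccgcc

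The run began 88 bases before the annotated start of HSP90AA1, and the first of 2 began 165 bases before that of HSP90AB1, 230 before that of HSPA8 and 245 before a start of HSPD1, which has 2 windows. The match is of letters alone, and binding was not measured. HSPA1B and DNAJB1, which HSF1 can switch on, had windows without this exact run. Absence of the run therefore does not mark a gene as outside the reach of HSF1.

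The cytosolic HSP90 pair split. HSP90AA1, the stress-inducible form, had values of 79920.0, 82297 and 71436 in Control against 37124, 42964 and 57875 with DCC-2036 and fell to 59.0% of its Control mean (log2 fold change -0.78 ± 0.18, adjusted p = 0.00966). HSP90AB1, the constitutive form, had values of 104532, 106888 and 111344 in Control against 116737, 130534 and 143360.0 with DCC-2036 and was not called (log2 fold change 0.27 ± 0.11, adjusted p = 0.0753). Neither pair of groups overlapped, the first lower and the second higher with DCC-2036. The call of HSP90AA1 was close to the threshold. Its adjusted p was 0.0154 to 0.0387 without any one library other than DCC-2036 library 3, and 0.0186 and 0.0125 with median-of-ratios and upper-quartile scaling. It was 0.0119 with transcripts summed and 0.0104 with a pseudocount of 0.1. A ratio of both genes in the same library does not depend on scaling. Per kilobase of transcript, HSP90AA1 made up 36.9, 37.0 and 32.9% of the summed HSP90 values in the Control libraries and 19.5, 20.1 and 23.6% with DCC-2036. The mean share went from 35.6 ± 2.35% to 21.1 ± 2.18% (SD, n = 3), without overlap, and the two-sided exact permutation p was 0.1, the smallest that 3 against 3 libraries can give. The summed value of both genes overlapped between groups, at 184452, 189186 and 182779 in Control and 153861, 173498 and 201235 with DCC-2036.

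**Figure D1:**
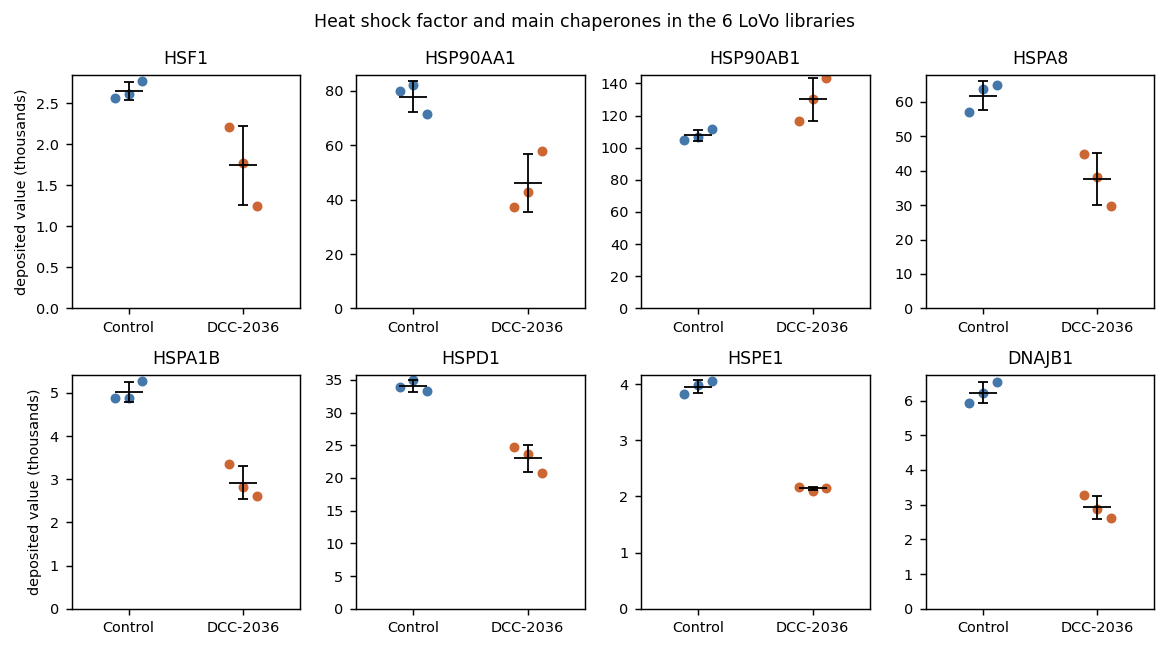
Deposited values (vertical axes, in units of 1000) of HSF1 and 7 main chaperone genes in the 3 Control (blue) and 3 DCC-2036 (orange) libraries; each point is a library, and bars show the mean and SD. HSP90AB1 is higher in each DCC-2036 library than in any Control library, and the other 7 genes are lower; HSF1 and HSP90AB1 were not called.

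Among 18 HSP90 cochaperones 3 were called higher and 3 lower, with a median log2 fold change of -0.12. FKBP4, an immunophilin of steroid receptor complexes, fell from 8139 ± 294 to 4009 ± 524 (log2 fold change -1.03, adjusted p = 0.00105), and its relative FKBP5 fell from 1559.7 ± 42.9 to 885 ± 197 (log2 fold change -0.84, adjusted p = 0.00679). STUB1, the ubiquitin ligase CHIP that marks chaperone-bound clients, was the third lower gene, at -0.60. The higher genes were SUGT1 (0.74), which links HSP90 to kinetochore assembly, TOMM70 (0.65), a receptor for chaperone-bound precursors on the outer mitochondrial membrane, and PPID (0.61), a cyclophilin. STIP1, the adaptor HOP that joins HSP70 to HSP90, had values of 14069.8, 14590.3 and 15112 in Control against 12223, 11160.0 and 8199 with DCC-2036 and was not called (adjusted p = 0.0383). FKBP4 kept its call with each library left out. The adjusted p of the other 5 called cochaperones lay between 0.0101 and 0.0306 without any one Control library or DCC-2036 library 2. STUB1 had an adjusted p of 0.0167 with median-of-ratios scaling and PPID of 0.0285 with equal totals, and TOMM70, STUB1 and FKBP5 lay at 0.0101 to 0.0155 without the filter on low values. STUB1 and PPID were chosen for naming after their values were seen.

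Of 12 tested HSP70 and HSP110 genes 3 were called lower and 9 were not called. HSPA8, the constitutive HSC70 and per kilobase the most abundant of the family, had values of 56884, 63588 and 64838 in Control against 44704, 38188 and 29606 with DCC-2036. It fell to 60.7% of the Control mean (log2 fold change -0.74 ± 0.17, adjusted p = 0.00956), with every DCC-2036 library below every Control library. Its call too was close to the threshold, with an adjusted p of 0.0251 to 0.0386 without any one Control library or DCC-2036 library 2, 0.0110 with median-of-ratios scaling, 0.0114 with transcripts summed and 0.0103 with a pseudocount of 0.1. HSPA1B, the stress-inducible HSP70, fell from 4884, 4873 and 5282 in Control to 3348, 2814 and 2605 with DCC-2036 (log2 fold change -0.79, adjusted p = 0.00253, and 0.0123 to 0.0144 without any one Control library or DCC-2036 library 2). HSPA1A encodes the same protein from a near-identical copy, and reads of this pair can be placed on either, so the division between them is uncertain. HSPA1A was listed at 77.3, 55.2 and 45.8 in Control and 57.9, 31.6 and 30.9 with DCC-2036, and the sum of both went from 5072 ± 222 to 2963 ± 398 without overlap. HSPA6, which is expressed almost solely under strong heat stress, reached at most 1.92 in any library and was not tested, nor was the testis gene HSPA1L. HSPA2, best known from the testis, fell from 79.0, 72.7 and 84.8 to 20.7, 15.2 and 8.59 at low values, with 1 DCC-2036 library under 10 (log2 fold change -2.41, adjusted p = 0.000973).

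Most other members of the family showed small differences. HSPA4, an HSP110-type exchange factor, stood at 10737 ± 239 in Control and 12082 ± 355 with DCC-2036 (adjusted p = 0.145), and HSPH1, the HSP110 itself, at 5840.0 ± 243 and 6209 ± 157 (adjusted p = 0.430). Both log2 fold changes, 0.17 and 0.09, turn negative with equal totals. HSPA4L, a relative of HSPA4, had values of 707, 797 and 781 in Control against 1531, 1279 and 984 with DCC-2036, without overlap, and was just short of a call (log2 fold change 0.71, adjusted p = 0.0130). HSPA4L was called higher, at 0.00196, without DCC-2036 library 3, and at 0.00426 to 0.00981 with median-of-ratios or upper-quartile scaling, with 10 or more required in all libraries and with a mean-variance trend. HSPA12A, a distant relative, had values of 912, 849 and 852 in Control against 602, 477 and 252 with DCC-2036 and was not called (adjusted p = 0.0234), and its adjusted p was 0.00716 without DCC-2036 library 1 and 0.00513 without library 3. HSPA14, which works at the ribosome, HSPA12B and HSPA13, an ER member whose sign turns with equal totals, lay between -0.23 and 0.22 and were not called. The family median of -0.07 turns to 0.0092 with median-of-ratios scaling and to 0.0889 over genes at 10 or more in all libraries. The summed value of the family was lower in each DCC-2036 library, at 94392, 101580.0 and 102814 in Control and 84477, 77144 and 67085 with DCC-2036, and HSPA8 is the largest term of that sum in each library.

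Of 13 exchange factors and cochaperones of HSP70, 5 were called higher and 2 lower, and the median log2 fold change was 0.22. SGTB, a tetratricopeptide cochaperone, rose from 295 ± 31.6 to 892 ± 206 (log2 fold change 1.57, adjusted p = 0.000950). BAG3, the exchange factor that steers clients to autophagy, rose from 3162, 3227 and 3338 in Control to 5417, 5572 and 4670.1 with DCC-2036 (log2 fold change 0.68, adjusted p = 0.00253). HSF1 can switch on BAG3 as it does HSPA1B and DNAJB1, and the change of BAG3 had the opposite sign to theirs. The remaining higher genes were GRPEL2 (0.97), BAG4 (0.81) and BAG2 (0.41), and the lower ones HSCB (-2.01), the J-domain protein of iron-sulphur cluster assembly, and GRPEL1 (-0.57), the main exchange factor of mitochondrial HSP70. SGTB and HSCB kept their calls with each library left out. BAG2 lost its call without any one of the 6 libraries, at 0.0124 to 0.0456, and BAG3, BAG4, GRPEL1 and GRPEL2 lost it without any one Control library or DCC-2036 library 2, at 0.0126 to 0.0299. With equal totals BAG2, BAG3, BAG4 and GRPEL2 had adjusted p of 0.0857, 0.0158, 0.0118 and 0.0104, and BAG2, BAG4 and GRPEL2 lay at 0.0159 to 0.0215 without the filter on low values. BAG2 also lost its call with transcripts summed, at 0.0106. BAG2 and BAG4 were chosen for naming after their values were seen.

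The J-domain families held 44 of the 83 members, of which 39 were tested, 7 called higher and 11 lower. DNAJB1, the main heat-inducible partner of HSP70, had values of 5923, 6225 and 6544 in Control against 3267, 2876 and 2613 with DCC-2036. It fell to 46.8% of the Control mean (log2 fold change -1.10 ± 0.12, adjusted p = 0.000711), with no overlap and with the call kept when any one library was left out. Of 9 tested DNAJB genes 5 were called, all lower, and the family median, with DNAJB7 included, was -0.43. DNAJB5, close in sequence to DNAJB1, went from 109, 104 and 105 to 34.1, 26.0 and 14.6 (log2 fold change -2.13, adjusted p = 0.00140). DNAJB12, anchored in the ER membrane with its J domain facing the cytosol, went from 783, 869 and 892 to 419.8, 368 and 246 (log2 fold change -1.33, adjusted p = 0.00232, and 0.0103 to 0.0126 without any one Control library). DNAJB4 (-0.56) and DNAJB2 (-0.43) completed the set, and both were named after their values were seen. Without any one Control library or DCC-2036 library 2 the adjusted p of DNAJB4 was 0.0177 to 0.0237, and that of DNAJB2, which also lost its call without DCC-2036 library 1, was 0.0154 to 0.0412. DNAJB2 had an adjusted p of 0.0285 with median-of-ratios scaling, 0.0127 with upper-quartile scaling and 0.0142 with transcripts summed. DNAJB6, which keeps aggregation-prone proteins soluble and was also named afterwards, was higher without overlap and without a call, at 1550.5, 1452 and 1529 in Control and 1768, 2117 and 2259 with DCC-2036 (adjusted p = 0.0217, and 0.00549 without DCC-2036 library 1). DNAJB7, likewise named afterwards, stood at 13.2, 9.63 and 7.27 in Control and 21.8, 15.4 and 36.8 with DCC-2036. It met the filter on low values through the DCC-2036 libraries, with 1 Control library at 10 or more, so its test is not given. The 3 untested DNAJB genes were DNAJB13, DNAJB3 and DNAJB8, none above 2.81 in any library.

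The 4 DNAJA genes went in both directions. DNAJA2, which serves HSC70 in refolding, rose from 2425, 2697 and 2728 to 3858, 4059.5 and 4314 (log2 fold change 0.64, adjusted p = 0.00271). DNAJA3, the mitochondrial TID1, fell from 2500.0, 2793 and 2847 to 1368, 1013 and 754 (log2 fold change -1.42, adjusted p = 0.00228). Without any one Control library or DCC-2036 library 2 the adjusted p was 0.0124 to 0.0149 for DNAJA2 and 0.0102 to 0.0123 for DNAJA3. DNAJA1, the most abundant J-domain gene per kilobase in Control, overlapped between groups at 8078 ± 482 and 7649 ± 604 (adjusted p = 0.544), and the sign of its log2 fold change of -0.08 turns with median-of-ratios scaling. DNAJA4 had values of 1514, 1368 and 1420.1 in Control against 1167, 1013 and 901 with DCC-2036, without overlap, and was not called (adjusted p = 0.0154). It was called lower without DCC-2036 library 1, at 0.00580, and with equal totals, at 0.00989.

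DNAJC genes share only the J domain and serve many separate processes. Of 26 tested, 6 were called higher and 5 lower, a share in either direction near the 41.9% of all tested genes, and 22 did not overlap between groups, beside 71.1% of all tested genes. DNAJC22, a membrane protein of unclear function, fell from 742, 738 and 750.1 to 196, 188 and 205 (log2 fold change -1.91 ± 0.09, adjusted p = 0.000178). DNAJC14, which acts in the traffic of membrane receptors, fell by a similar amount, from 1421, 1399 and 1475 to 449, 325 and 387 (adjusted p = 0.000268). Both kept their calls with each library left out, and in neither did the groups overlap. DNAJC6, the auxilin that uncoats clathrin vesicles, fell from 237 ± 13.8 to 119.6 ± 22.8, or 50.5% (adjusted p = 0.00276, and 0.0128 to 0.0147 without any one Control library). On the higher side, DNAJC25 went from 134, 149 and 131 to 296, 335 and 468 (log2 fold change 1.38, adjusted p = 0.00138). DNAJC27, a RAB-like protein with a J domain, went from 80.0, 65.7 and 67.1 to 142, 168 and 189.5 (log2 fold change 1.21, adjusted p = 0.000989). DNAJC1, which sits in the ER membrane and binds BiP, rose from 468 ± 19.2 to 1059 ± 298 (log2 fold change 1.14, adjusted p = 0.00498, and 0.0198 to 0.0216 without any one Control library or DCC-2036 library 2). DNAJC9, a histone chaperone, DNAJC13, an endosomal protein, and DNAJC21, a factor of ribosome biogenesis, made up the rest outside mitochondria, at -0.49, -0.54 and 0.67. They were named after their values were seen, and without any one Control library or DCC-2036 library 2 their adjusted p lay between 0.0124 and 0.0294. DNAJC9 also lost its call with median-of-ratios scaling (0.01396) and DNAJC21 with equal totals (0.0156). The other 15 tested DNAJC genes lay between -1.19 and 0.67 and were not called, and DNAJC5B and DNAJC5G were too low to test. Some of the 15 were called in other settings and are named for that, after their values were seen. DNAJC24 (0.67, adjusted p = 0.0114) was called higher at 0.00941 with median-of-ratios scaling, 0.00860 with 10 or more required in all libraries and 0.00394 without DCC-2036 library 1, and DNAJC8 (0.42, adjusted p = 0.0123) at 0.00838 with median-of-ratios scaling. DNAJC28 stood at 14.9, 25.7 and 19.3 in Control and 8.32, 8.70 and 12.7 with DCC-2036. It met the filter on low values through the Control libraries, and of the DCC-2036 libraries only library 3 reached 10, so its test is not given. DNAJC16 stood at 773, 723 and 755 in Control and 561, 460 and 262 with DCC-2036 (adjusted p = 0.0298). DNAJC17 stood at 240, 253 and 243 in Control and 180, 126 and 75.0 with DCC-2036 (adjusted p = 0.0233). DNAJC30 stood at 249, 206 and 220 in Control and 68.7, 101 and 189 with DCC-2036 (adjusted p = 0.0402). Without DCC-2036 library 1, DNAJC16 and DNAJC17 were called lower at 0.00920 and 0.00360. Without library 3, DNAJC16 and DNAJC30 were called lower at 0.00825 and 0.00170. The adjusted p of DNAJC30 was 0.0665 to 0.113 without any one other library.

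In mitochondria the chaperonin fell. HSPD1, the HSP60 subunit of the folding chamber, had values of 33854, 35049 and 33259 in Control against 24780.1, 23596 and 20757 with DCC-2036 (log2 fold change -0.57 ± 0.11, adjusted p = 0.00475). HSPE1, its HSP10 lid, went from 3832, 3989 and 4048 to 2166, 2105 and 2154 (log2 fold change -0.88 ± 0.09, adjusted p = 0.000611). No DCC-2036 library reached the lowest Control library for either gene. HSPE1 kept its call with each library left out, whereas HSPD1 had adjusted p of 0.0203 to 0.0263 without any one Control library or DCC-2036 library 2. The genes lie head to head on chromosome 2 with annotated starts 105 bases apart. Per kilobase, HSPE1 made up 22.6, 22.7 and 23.9% of their sum in Control and 18.4, 18.7 and 21.1% with DCC-2036, without overlap (two-sided exact permutation p = 0.1, the smallest possible, so this comparison cannot pass a threshold). Pseudogene symbols number 28 for HSPE1, 22 for HSPD1 and 20 for HSPA8 in RefSeq, and how the authors counted reads that match several copies is not given in the sources used here. The read-through transcript HSPE1-MOB4, which begins in HSPE1, is not among the members and was named after its values were seen, had values of 1377, 1353 and 1379 in Control against 1307, 1280.4 and 1365 with DCC-2036 and overlapped between groups (adjusted p = 0.603).

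Of the 10 members placed in mitochondria all were tested, with 2 called higher and 3 lower. HSPA9, the mitochondrial HSP70 that imports and folds precursors, stood at 13013, 13177 and 13299 in Control and 14741, 14301 and 14288 with DCC-2036 and was not called (log2 fold change 0.13, adjusted p = 0.225). Its groups did not overlap, and the sign turns with equal totals. DNAJC15, a relative of the import motor's J protein, rose from 274, 284 and 297 to 437, 513 and 566 (log2 fold change 0.81, adjusted p = 0.00225), and DNAJC4 from 165 ± 28.5 to 315 ± 31.8 (log2 fold change 0.93, adjusted p = 0.00317). Without one of several single libraries (Control 1 or 2, DCC-2036 library 2, and for DNAJC15 also Control 3) their adjusted p was 0.0110 to 0.0160. DNAJC11, a protein tied to cristae organisation and named after its values were seen, had values of 2746, 2774 and 2786 in Control against 1881, 1335 and 714 with DCC-2036. It was not called (adjusted p = 0.0207), and its adjusted p was 0.00423 without DCC-2036 library 1 and 0.00664 without library 3. Among 11 other mitochondrial chaperones and proteases 2 were higher and 5 lower, with a median of -0.35. TRAP1, the HSP90 of mitochondria, fell from 7267, 7631 and 7960.3 to 4089, 4044 and 4246 (log2 fold change -0.88, adjusted p = 0.000683), and LONP1, the matrix protease, from 4649.5, 4438 and 4961 to 2167, 2022 and 1820.4 (log2 fold change -1.23, adjusted p = 0.000442). HTRA2, a protease of the intermembrane space, fell most of the 5, at -1.70, and SPG7 (-1.12) and CLPP (-0.63) were the other lower genes. AFG3L2 (0.64), which forms the inner-membrane protease together with SPG7, and YME1L1 (0.60) were higher. TRAP1, LONP1 and HTRA2 kept their calls with each library left out. The adjusted p of SPG7, CLPP, AFG3L2 and YME1L1 was 0.0105 to 0.0210 where a Control library or DCC-2036 library 2 was left out and the call was lost, and for SPG7 0.0211 with transcripts summed and 0.0115 without the filter on low values. With transcripts summed the log2 fold change of SPG7 was also smaller in size, at -0.74. SPG7 and CLPP were named after their values were seen.

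CCT genes had small log2 fold changes, from -0.41 to 0.31. None of the 9 tested was called in limma, where 1 had an unadjusted p under 0.05 on the higher side and 2 on the lower side, 3 were called with a mean-variance trend, and 2, CCT3 and CCT6A, were called lower with equal totals (adjusted p of 0.00467 and 0.00406). The summed value of the family overlapped, at 106727 ± 4255 in Control and 100919 ± 1324 with DCC-2036. The ring is built from 8 different subunits in equal number, and their transcripts did not move as one. CCT7 had values of 12709, 13556 and 14046 in Control against 16238, 17015 and 16686 with DCC-2036 (log2 fold change 0.31, adjusted p = 0.0282), higher without overlap. CCT3 had values of 19081, 20686 and 21306 in Control against 16216, 16358 and 15719 with DCC-2036 (-0.34, adjusted p = 0.0219) and CCT6A values of 11872, 12460.2 and 12263 in Control against 9680.4, 9142 and 8881 with DCC-2036 (-0.40, adjusted p = 0.0103), both lower without overlap. CCT6A was called without DCC-2036 library 1, at 0.00960, and with 10 or more required in all libraries, at 0.00893. CCT2 and CCT4 also lay lower without overlap (-0.20 and -0.13), and CCT5, CCT8 and TCP1 overlapped between groups with log2 fold changes of 0.05, -0.05 and 0.04, whose signs turn with one of the other scalings. As shares of the 8 subunits per kilobase, which no scaling changes, CCT7 went from 14.6 ± 0.277% to 19.1 ± 0.372%. CCT3 went from 20.9 ± 0.433% to 17.5 ± 0.193%, and CCT6A from 9.91 ± 0.189% to 7.92 ± 0.348%. Of the 8 shares 7 did not overlap between groups (two-sided exact permutation p = 0.1 each, the smallest possible), with TCP1, CCT5 and CCT7 higher and CCT2, CCT3, CCT4 and CCT6A lower, and the share of CCT8 overlapped. The 8 shares make up one whole, so a rise of some forces a fall of others. The 7 are therefore not separate results, and the values of TCP1 and CCT5 themselves overlapped. CCT7 thereby passed CCT3 as the subunit with the most transcript per kilobase. CCT6B, a relative of CCT6A, stayed under 25 in each library, and CCT8L2 was listed at 0 throughout.

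**Figure D2:**
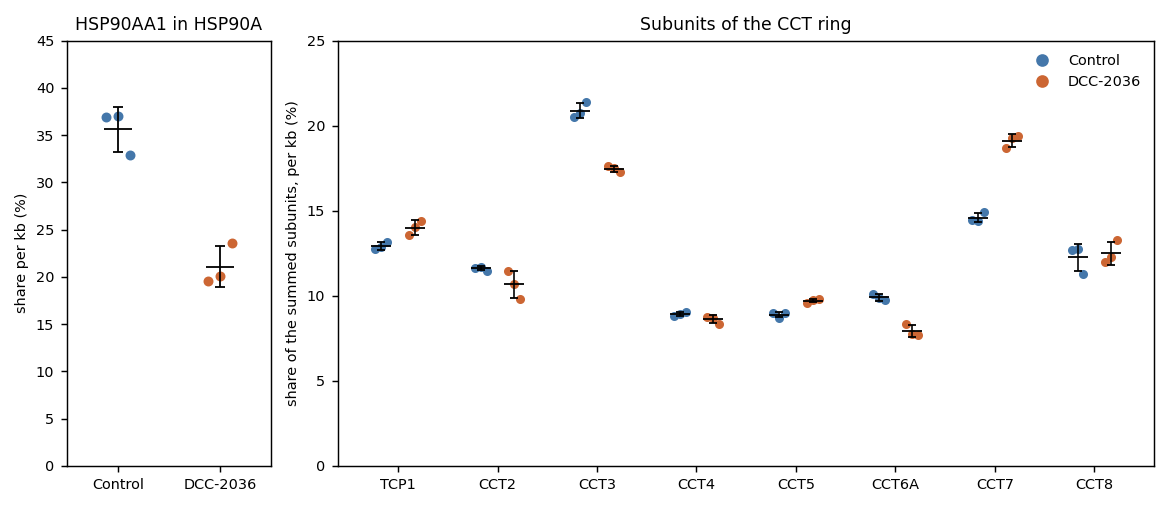
Shares per kilobase of transcript, in percent, in the 3 Control (blue) and 3 DCC-2036 (orange) libraries; points are libraries and bars the mean and SD. At left, HSP90AA1 as a share of HSP90AA1 and HSP90AB1 goes from 35.6% to 21.1%; at right, each subunit as a share of the 8 CCT ring subunits, with CCT7 higher and CCT3 and CCT6A lower in each DCC-2036 library.

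Prefoldin is a 6-subunit cochaperone that hands actin and tubulin chains to CCT, and phosducin-like proteins and TXNDC9 regulate the ring. Of 12 such genes 6 were called higher and 1 lower, beside 19.2% and 22.7% of all tested genes, with a median log2 fold change of 0.62. PFDN1 rose from 936, 990.4 and 1036 to 2039.9, 2398 and 2781 (log2 fold change 1.27, adjusted p = 0.000717), and URI1, an unconventional prefoldin, from 1026, 1081 and 1066 to 2009.9, 2726 and 3397 (log2 fold change 1.33, adjusted p = 0.00190). PFDN6 fell from 690.1, 719 and 782 to 168, 177 and 164 (log2 fold change -2.10 ± 0.10, adjusted p = 0.000178). The subunits of the prefoldin complex thus spread from -2.10 to 1.27. PFDN2 (0.97), PDRG1 (0.90), TXNDC9 (0.89) and PDCL3 (0.78) were the other higher genes, named after their values were seen. PFDN1, PFDN6, PDRG1 and PDCL3 kept their calls with each library left out; for URI1, PFDN2 and TXNDC9 the adjusted p was 0.0101 to 0.0163 where a Control library or DCC-2036 library 2 was left out and the call was lost.

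Genes with a symbol starting HSPB numbered 10, and 6 were tested, with 2 called higher, HSPB6 included, and 1 lower and a median log2 fold change of 0.10, which is -0.100 with equal totals and -0.0666 over genes at 10 or more in all libraries. HSPB6, a small heat shock protein best known from muscle, went from values near 0, 2.79, 4.43 and 3.68, to 25.1, 47.5 and 58.0, without overlap. It had to differ to be tested at all, so its test is not given. HSPB8, which works with BAG3 in selective autophagy, rose from 35.5, 56.3 and 68.4 to 129.6, 144 and 113 (log2 fold change 1.30, adjusted p = 0.00476), and its adjusted p was 0.0106 to 0.0206 without Control library 2 or DCC-2036 library 1 or 2. HSPB1, the abundant HSP27, had values of 7048, 5995 and 6231 in Control against 6478, 7798 and 8993 with DCC-2036 and overlapped between groups (adjusted p = 0.168). HSPB7 and HSPB9 were too low to test, at most 2.82 and 0.905 in Control and 7.25, 4.41 and 8.11 and 3.15, 11.7 and 2.56 with DCC-2036, and HSPB2 and HSPB3 did not exceed 1.06. The remaining 3 genes are of other kinds. HSPBAP1, a protein that binds HSPB1, fell from 97.8, 96.5 and 99.4 to 31.0, 20.6 and 14.5 (log2 fold change -2.17, adjusted p = 0.000909). HSPBP1, an exchange factor of HSP70, stood at 1662 ± 61.8 and 1589.8 ± 138, and HSPB11, an intraflagellar transport protein, at 299.7 ± 9.36 and 229 ± 17.3, neither of them called (adjusted p = 0.608 and 0.0164). HSPB11 was called lower with equal totals, at 0.00276, and the sign of HSPBP1 turns with median-of-ratios scaling.

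Compartments were set side by side without a test of the difference between them. For the 9 members placed in the ER the median log2 fold change was 0.04, with 2 called higher (DNAJC25 and DNAJC1) and 1 lower (DNAJB12), and that median is -0.16 with equal totals. The 10 mitochondrial members had a median of -0.73 with 2 higher and 3 lower, and the 52 other tested members, cytosolic, nuclear or not assigned, one of -0.20 with 5 higher and 14 lower. The mitochondrial median includes DNAJC28, which met the filter through the Control libraries. Without DNAJC28 the middle member is HSPD1, at -0.57. The median of the other tested members includes HSPB6 and DNAJB7, which met the filter through the DCC-2036 libraries. Of 4 ER chaperones outside the rule, HSPA5, the ER HSP70 BiP, rose from 19379, 19744 and 19890.0 to 29003, 32254 and 37108 (log2 fold change 0.73, adjusted p = 0.00278) and its J protein DNAJC3 from 1492, 1476 and 1387 to 3394, 3672 and 4328 (log2 fold change 1.38, adjusted p = 0.000414). HSP90B1, the ER HSP90, had values of 17472, 18148 and 15937 in Control against 20627, 23029 and 28933 with DCC-2036 and DNAJB9 values of 202, 188 and 184 in Control against 222, 172 and 132 with DCC-2036, neither called (adjusted p = 0.0297 and 0.503; for HSP90B1 0.00975 with a mean-variance trend), and both were named after their values were seen. DNAJC3 kept its call with each library left out, and the adjusted p of HSPA5 was 0.0141 to 0.0153 without any one Control library or DCC-2036 library 2. The HSP70 of each compartment thus had its own value, -0.74 for HSPA8 in the cytosol, 0.13 for HSPA9 in mitochondria and 0.73 for HSPA5 in the ER, and likewise the HSP90 genes, -0.78 and 0.27 in the cytosol, -0.88 in mitochondria and 0.48 in the ER.

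Levels can be set side by side only per length. A length of the transcript (GENCODE 29) was found for 79 of the 83 members. Per kilobase of transcript the Control mean was 41668 for HSP90AB1, 25079 for HSPA8, 23049.5 for HSP90AA1 and 13871 for HSPD1, followed by CCT3 at 9469 and HSPB1 at 7068. With DCC-2036 the means were 50430.0, 15225, 13609.8 and 9387, followed by HSPB1 at 8533 and CCT7 at 8196. HSP90AB1 stood highest and HSPD1 lowest of these 4 in each library. HSPA8 and HSP90AA1 changed places between libraries, with HSP90AA1 above HSPA8 in Control library 1 and DCC-2036 library 3, so their order is not settled in either group. Genes differ in how many reads map to them alone, and the length taken for a transcript matters too. The CCT5 transcript kept was taken as 3675 bases long. Its other transcripts were 1728 to 1997 bases long and stood at 78.2 to 89.7% of its value. These levels, and the shares of the CCT ring, are therefore approximate. Together the 83 genes took 2.93, 2.99 and 2.91% of the summed values of all symbols in Control and 2.35, 2.27 and 2.22% with DCC-2036. Their own sum went from 491039 ± 11143 to 433213 ± 11753 (SD, n = 3), and this sum is carried by the few abundant genes named first.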

How the data were processed

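RNA of LoVo cells, taken up in Trizol, was sequenced from Illumina Nextera XT libraries, 3 per group, and the authors deposited 1 table of 45006 RefSeq mRNA transcripts. The deposited values are a signal adjusted by the authors. The method of adjustment, the aligner, the way of counting and the genome build are not given in the sources used here. The sums of the values were not equal across libraries, while their upper-quartile factors lay between 0.975 and 1.01. Whole reads cannot be recovered from them, so counting error is unknown. The table also holds the authors' own log2 fold change per transcript, which was not used. The authors' p-value and q-value columns were not used either. Members, families, partner lists and markers were chosen with earlier results of these data known. From the deposited values, log2(value + 1) of 1 transcript per symbol was fitted with limma 3.58.1 (R 4.3.3) over the 12725 symbols at 10 or more in at least 3 libraries, with Benjamini-Hochberg adjustment over all of them, two-sided, and genes were called at an adjusted p under 0.01. The procedure was tested on simulated data, and no result of that test is given or used here. Single ratios were compared by an exact permutation test over the 6 libraries. Log2 fold changes are DCC-2036 minus Control. Named were all tested HSP90, HSP70, HSP110, HSP60, HSP10, CCT and HSPB members, HSF1, the DNAJA genes, DNAJB1, the 5 highest and 5 lowest other DNAJ genes called without overlap, the 2 highest and 2 lowest called of each partner list, and BAG3, HSF2, STIP1, TRAP1, GRPEL1 and LONP1. A gene outside that rule is said to have been named after its values were seen. Alternatives covered scaling, the filter, the pseudocount, summed transcripts, a mean-variance trend, a replicate block, stricter and looser calls, and each library left out. Summaries and figures were made with Python 3.11.15, numpy 2.4.6, pandas 2.3.3, scipy 1.17.1 and matplotlib 3.10.9.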

Additional observations from a re-analysis of the deposited data

How the results depend on the processing

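Of 94 named genes 57 were called, and 19 of these kept their call and direction under every alternative of scaling, filter, pseudocount, transcripts, fit and library, 25 under those with all 6 libraries and 46 under the 3 other scalings. Of the 19, 15 also had a log2 fold change of 1 or more in size. HSPB6 and HSPA2, 2 of the called genes, were not tested with 10 or more required in all libraries and are counted as not kept. No called gene changed direction under an alternative that tested it, while 10 of the 37 not called did. The 9 members called higher (beside 19.2% of all tested genes) became 14 with a mean-variance trend (beside 22.6%), 4 with the replicate block (9.45%), 17 at an adjusted p under 0.05 (28.5%), 5 when a log2 fold change of 1 or more in size was required too (7.42%), and 3 to 10 with a library left out (7.30% to 21.4%). The 18 called lower (beside 22.7%) became 11 without the filter on low values, where more genes are tested (12.9%), 8 with the replicate block (15.0%), 29 at an adjusted p under 0.05 (33.7%), 8 with that size required (15.2%), and 7 to 23 with a library left out (11.8% to 27.1%). In each of these settings the share of all tested genes moved in the same direction as the member count, so these moves are not particular to chaperones. Replicate numbers did not pair the libraries: the correlations of the same number between groups were 0.081, -0.035 and -0.003, so the replicate block removes degrees of freedom. With equal totals the log2 fold change was -0.15 for CCT5, -0.021 for HSPA13, -0.028 for HSPA4, -0.064 for HSPA9, -0.11 for HSPH1 and -0.16 for TCP1, and the HSPB median was -0.100, where the median of all tested genes was -0.29. With median-of-ratios scaling it was 0.032 for CCT8, 0.0015 for DNAJA1 and 0.015 for HSPBP1, and the HSP70 and HSP110 median was 0.0092. Over genes at 10 or more in all libraries the HSP70 and HSP110 median was 0.0889 and the HSPB median -0.0666, since fewer genes enter. With a library left out TCP1 ranged from -0.0068 (without Control replicate 1) to 0.068 and DNAJB9 from -0.34 to 0.031 (without DCC-2036 replicate 3). Apart from what the smaller number of genes or libraries shows, the cause was not tested. The alternative for read counts was not run, because the values are not counts. Without counts, the depth behind a value is unknown.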

Other observations

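Alternative transcripts of the same chaperone gene were listed on lines of their own, and no test over them is used here. More than 1 transcript stood at 10 or more in at least 3 libraries for 44 genes. In 39 of these, the log2 fold change of every other transcript lay less than 0.2 from that of the transcript kept. For 1, DNAJB14, the sign differed, at -0.02 for the transcript kept and 0.15 for a short one. DNAJB14 was named after its values were seen, as was DNAJC25-GNG10. For DNAJB6 the transcript kept stood at 1551, 1452 and 1529 in the Control libraries and 1768, 2117 and 2259 with DCC-2036. Another DNAJB6 transcript stood at 1162, 1150.1 and 1239 in Control and 1408, 1999 and 2537 with DCC-2036, so that it passed the transcript kept in DCC-2036 library 3. Shared exons mean that reads can be placed on several transcripts of a gene, and how the authors counted them is not given in the sources used here. Another DNAJB5 transcript had the same value as the one kept in each of the 6 libraries. The other HSP90AB1 transcripts stood at 84.6 to 99.96% of the one kept. Transcripts of a gene are thus not separate measurements, their closeness is not separate support, and a sum over them can hold a read more than once. The read-through transcript DNAJC25-GNG10, counted among the DNAJC genes by its symbol, stood at 503, 478 and 474 in Control and 594, 629 and 759 with DCC-2036. It begins in DNAJC25, whose own transcript stood at 134, 149 and 131 in Control and 296, 335 and 468 with DCC-2036.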
